A study of Mus musculus with 22 samples.

Results

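The comparison described here is the effect of cannabidiol (CBD) on microglia of mice exposed long before to Gulf War chemicals and not given lipopolysaccharide (LPS). Its members are the 7 of 22 bulk RNA-seq libraries whose labels give that exposure and a buffer injection, 3 with CBD (GW-CBD-PBS, library numbers 2, 3 and 4) and 4 without (GW-PBS, library numbers 1 to 4), and all genes were compared. Every mouse was a male of strain C57BL/6J. At 10 weeks of age both groups were injected intraperitoneally on each of 10 days with permethrin at 200 mg/kg, an insecticide of the pyrethroid class, and pyridostigmine bromide at 0.7 mg/kg, which blocks acetylcholinesterase, and were then kept to 17.5 months. The treated mice then received CBD intraperitoneally at 30 mg/kg on 28 consecutive days and at intervals of 2 days for 2 more weeks. The GW-PBS mice received its vehicle. All 7 had a PBS injection 24 hours before the brain was taken, and microglia were sorted as live CD45mid, CD11b+ and CD11a- cells. Beside them stand 4 libraries of unexposed, vehicle-treated mice (Ctrl-PBS) and, for the same CBD comparison after LPS (0.33 mg/kg), 3 GW-LPS and 4 GW-CBD-LPS libraries. No group of unexposed mice with CBD was analysed here. Whether a library holds the cells of 1 mouse is not stated, and the p-values therefore refer to the spread among libraries, which may be technical. The samples' titles and library names number the libraries differently, and the library-name number is used throughout.

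Microglia are the resident macrophages of the brain, and they survey tissue through receptors such as P2ry12 and Cx3cr1. With age, lipid load or injury, some take on a disease-associated state, in which lysosomal, lipid-handling and antigen presentation genes are raised and part of the homeostatic programme is lowered. CBD is a plant cannabinoid that does not act mainly through the classical cannabinoid receptors. It has been linked to a range of receptors, channels and transporters and to lowered inflammatory output of myeloid cells.

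The 7 libraries held 33100476 to 40458326 counts, and 14219 to 14831 genes had at least 10 counts. The 10 microglia markers summed to 41900 to 51360 CPM (counts scaled to a common library total), so the sorted cells carried their labelled identity. Neuron markers summed to at most 11.4 CPM and markers of T and NK cells to at most 11.9 CPM, the lowest of the lists of other cells. Erythroid markers reached 1602 CPM, and choroid plexus and ependymal markers 741 CPM. B and plasma cell markers ran from 921.4 to 1142 CPM, and oligodendrocyte lineage markers from 293.5 to 475.9 CPM. GW-PBS replicate 1 stood apart. Its genes differed from the rest of its group by a median of 0.50 on the log2 scale, against 0.17 to 0.42 in the other 6 libraries, its most abundant gene took 6.65% of its counts, and its neutrophil markers summed to 2057 CPM against 507 to 1111 CPM.

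No gene passed the test. Of 16554 genes in the edgeR quasi-likelihood fit, 0 (0%) had a Benjamini-Hochberg adjusted p under 0.05, and the smallest adjusted p was 0.524. At an unadjusted p under 0.05 there were 1569 genes (9.48%), 397 with a higher level in the CBD-treated libraries (2.40%) and 1172 with a lower level (7.08%). DESeq2 also called 0 genes, with 1819 at an unadjusted p under 0.05. limma voom with quality weights for each library called 217 genes (1.31%), 67 higher (0.405%) and 150 lower (0.906%). That fit gave GW-PBS replicate 1 a weight of 0.29 and GW-CBD-PBS replicate 4 a weight of 4.05. Without GW-PBS replicate 1 edgeR called 0 genes and 523 (3.18%) were at an unadjusted p under 0.05, and without GW-PBS replicate 2 it called 0 and 3303 (20.0%) were. All genes tested had a median log2 fold change of -0.03, and 53.2% were below 0. Below, "lower" and "higher" describe the direction of measured levels, none of which passed the edgeR test.

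The genes with the smallest p in each direction, 12 and 12, show what the comparison looks like in single libraries. They were taken by their p from this contrast, so the separation of the groups in them is a description. For scale, 3.18% of all genes had all 3 CBD-treated libraries above all 4 GW-PBS libraries, and 5.00% had all 3 below. Values are CPM scaled by TMM factors, in the order of the library numbers.

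The smallest p of all belonged to Tada2b (ENSMUSG00000029196, chr5:36473670-36484285, minus strand, GRCm38), which encodes an adaptor subunit of a histone acetyltransferase complex. It was at 30.3, 28.0 and 26.5 CPM in the CBD-treated libraries and at 6.81, 8.90, 4.62 and 6.64 CPM in the GW-PBS libraries. The groups did not overlap, and the 4 Ctrl-PBS libraries, at 5.94 to 12.03 CPM, lay with the GW-PBS libraries or just above them. The log2 fold change was 2.07 ± 0.47 (SE, edgeR adjusted p = 0.524), 2.08 without GW-PBS replicate 1. In the fit of the 7 libraries alone it was the 1 gene called.

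Qk, which encodes the RNA-binding protein Quaking, was at 538, 520 and 580 CPM with CBD against 311, 240, 183 and 201 CPM without. Every treated library was above every untreated one, and Ctrl-PBS spanned 199 to 304 CPM (1.22 ± 0.31, edgeR adjusted p = 0.524). Khdrbs3, a STAR-family RNA-binding protein related to Quaking, was at 69.5, 115 and 57.3 CPM against 33.0, 11.1, 7.36 and 10.9 CPM. GW-PBS replicate 1 was the high library of its group here, and the log2 fold change of 2.37 ± 0.60 was 3.05 without it.

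The remaining genes of the higher side encode proteins of several kinds. Cul3, the scaffold of a ubiquitin ligase family whose members include the Keap1 ligase of the transcription factor Nrf2, was at 59.9, 67.5 and 59.7 CPM against 28.9, 32.5, 18.9 and 17.4 CPM (1.35 ± 0.38). Fbxl14, an F-box subunit of another ubiquitin ligase, was at 60.5, 58.8 and 66.4 CPM against 42.9, 47.0, 35.0 and 37.1 CPM (0.61 ± 0.16). Both sets of libraries were apart, and for Cul3 replicates 3 and 4 were the low GW-PBS libraries.

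Chsy1, a chondroitin sulfate synthase, was at 60.5, 75.3 and 69.7 CPM against 44.0, 33.3, 31.6 and 27.6 CPM (1.00 ± 0.26). Git1, a scaffold that regulates Arf GTPases, was at 71.8, 69.3 and 59.2 CPM against 37.5, 40.4, 24.3 and 21.2 CPM (1.11 ± 0.29). Zfpm1, the GATA cofactor known as FOG1, was at 40.8, 33.1 and 32.9 CPM against 20.6, 20.9, 9.23 and 7.67 CPM (1.29 ± 0.38). In Git1 and Zfpm1 the GW-PBS libraries fell into a higher pair, replicates 1 and 2, and a lower pair, replicates 3 and 4. Heca had the same layout, with 49.5, 48.6 and 51.3 CPM against 29.9, 24.7, 13.1 and 13.5 CPM (1.29 ± 0.37).

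Hus1, part of a checkpoint clamp that senses DNA damage, had a smaller difference of 0.58 ± 0.14, from 6.75 to 9.05 CPM in GW-PBS to 10.5 to 12.4 CPM with CBD. Eml6, a microtubule-associated protein, differed by 0.60 ± 0.17, and the zinc finger gene Zfp777 by 1.20 ± 0.35, with 1 treated library at 24.6 CPM and the others at 10.2 and 9.66 CPM. All 12 had an edgeR adjusted p of 0.524. With the transcript length and GC offsets described below, the log2 fold changes of the 12 ran from 0.41 to 2.55. The 12 also kept their direction without GW-PBS replicate 1. That follows from the choice, as no GW-PBS library reached the treated ones in any of them. limma voom, on the same libraries the genes were chosen on, called 11 of the 12 (background 0.405%).

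The 12 genes of the lower side had transcripts of 390 to 4835 bases with a median of 805 bases, against 3983.5 bases for the 12 on the higher side. Rps27, Rps29, Rpl38 and Rps12 encode proteins of the cytosolic ribosome. Rps27 was at 21.2, 29.7 and 23.1 CPM with CBD against 102, 35.3, 46.6 and 46.6 CPM without. The groups did not overlap, but GW-PBS replicate 1 was far above the rest of its group, and the log2 fold change of -1.23 ± 0.32 was -0.79 without it. Rps12 was at 5.85, 1.72 and 1.88 CPM against 21.4, 6.28, 9.65 and 9.41 CPM (-1.89 ± 0.52, and -1.41 without replicate 1).

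Anapc13, a subunit of the anaphase-promoting complex, was at 10.3, 10.5 and 11.1 CPM against 34.6, 14.8, 18.0 and 18.3 CPM (-1.01 ± 0.26, and -0.68 without replicate 1). Tomm7, of the mitochondrial outer membrane translocase, was at 7.86, 10.6 and 9.26 CPM against 37.6, 14.3, 15.2 and 21.3 CPM (-1.26 ± 0.35, and -0.87 without it). Dpm3, which anchors dolichol-phosphate mannose synthase, differed by -1.25 ± 0.33, and by -0.78 without replicate 1. The selenoprotein gene Selenoh differed by -1.01 ± 0.28, and by -0.65 without it. GW-PBS replicate 1 was the highest GW-PBS library for 10 of the 12 genes on this side and for 5 of the 12 on the other.

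Cdk5rap1, which modifies mitochondrial transfer RNAs, was at 7.97, 11.5 and 20.9 CPM against 37.4, 25.2, 54.9 and 68.8 CPM (-1.79 ± 0.49, and -1.88 without replicate 1). Ly6a, the interferon-inducible surface antigen Sca-1, was at 8.10, 10.8 and 8.68 CPM against 30.1, 18.3, 25.04 and 14.5 CPM (-1.26 ± 0.35, and -1.06 without replicate 1). Zfp729b, a zinc finger gene, differed by -0.77 ± 0.20, and by -0.68 without it. Cst7, which encodes cystatin F and is a defining gene of disease-associated microglia, was at 38.8, 63.5 and 40.2 CPM against 151, 73.3, 184 and 62 CPM (-1.31 ± 0.36, and -1.16 without it). It was the 1 gene of these 12 whose groups overlapped, by GW-CBD-PBS replicate 3 and GW-PBS replicate 4. All 12 had an edgeR adjusted p of 0.524. limma voom, on the same libraries the genes were chosen on, called 11 (background 0.906%).

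**Figure D1:**
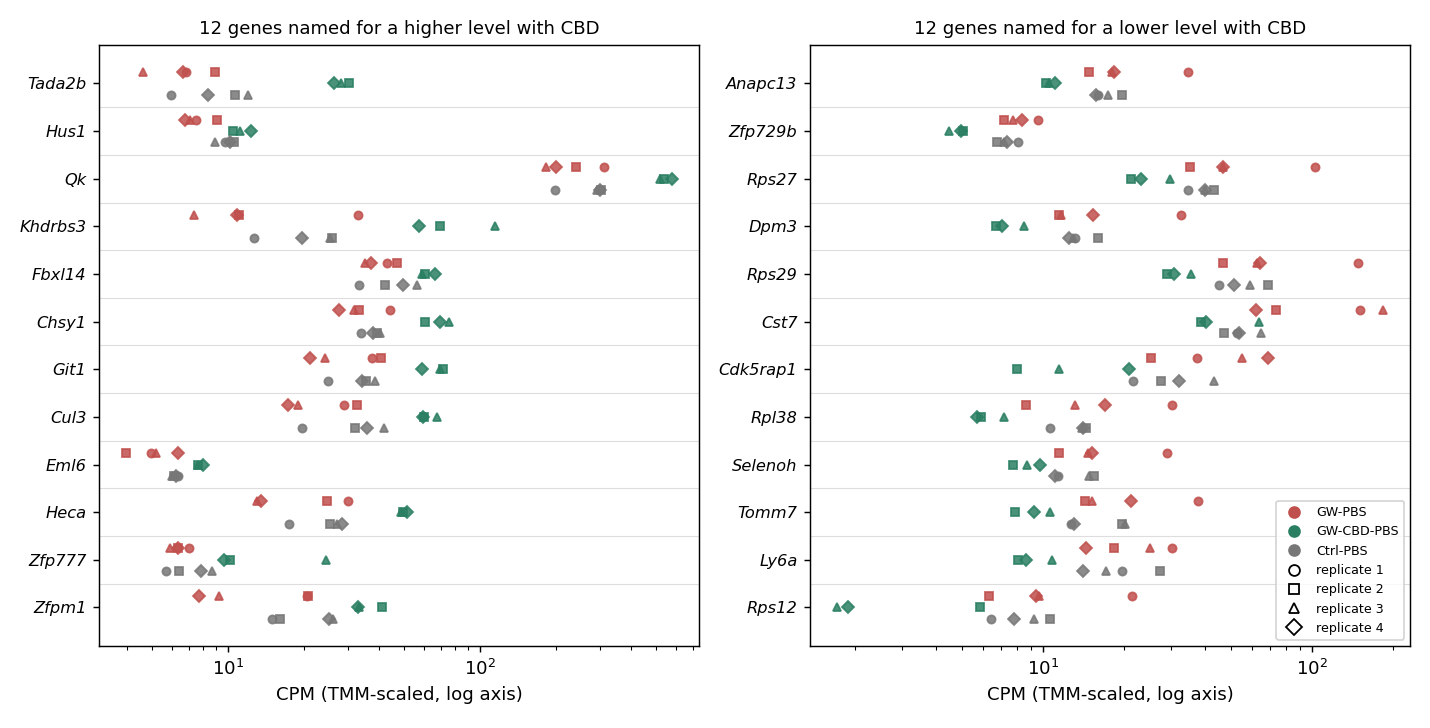
CPM of the 24 genes in each library on a log axis, with colours for GW-PBS, GW-CBD-PBS and Ctrl-PBS and symbols for library numbers. All 12 genes of the left panel and 11 of the right have no overlap between the CBD-treated and GW-PBS libraries, and in the right panel GW-PBS replicate 1 (circle) is the highest GW-PBS library for 10 of 12 genes.

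In Ctrl-PBS the mean level lay between the GW-PBS and GW-CBD-PBS means for 12 of 12 genes on the higher side and 12 of 12 on the lower side. The genes were chosen for a large gap between those 2 groups, so another group lying between them follows in part from that choice. For 1 gene on each side a Ctrl-PBS library reached the range of the CBD-treated libraries.

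The pair of groups given LPS offers the same CBD comparison in 7 other libraries. There 3 of the 12 genes of the higher side had a fold change above 0, and 3 of the 12 of the lower side one below 0. Tada2b had a log2 fold change of -1.07 ± 0.46 with LPS, against 2.07 ± 0.47 without. Cst7 had 0.39 with LPS and -1.31 without. None of the 24 passed in the LPS pair, where the smallest edgeR adjusted p among them was 0.266. The interaction term, which uses the libraries the genes were chosen on, passed for 0 of 24 in edgeR, with a smallest adjusted p of 0.0617 for Tada2b, and 21 of 24 had an unadjusted p under 0.05 (background 15.3%). Over all genes the interaction term passed for 3 genes (0.0181%), none of them among the 24.

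**Figure D2:**
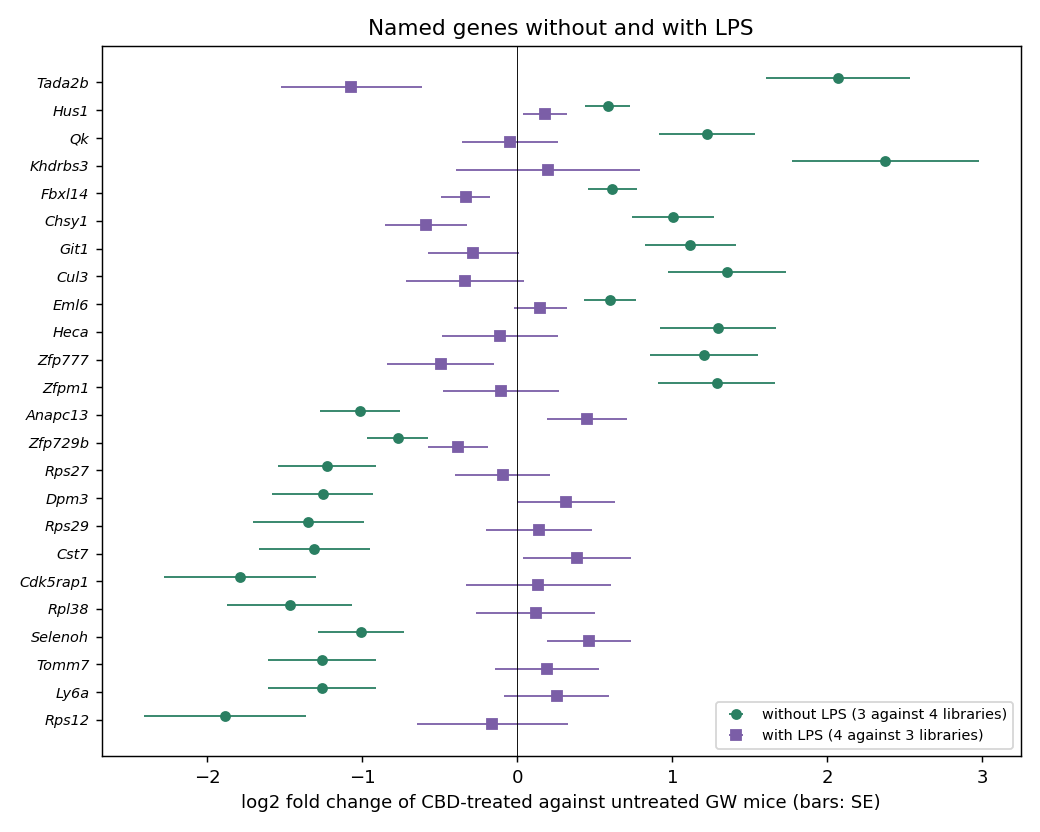
log2 fold change of CBD-treated against vehicle-treated GW mice for the 24 genes, without LPS (circles, 3 against 4 libraries) and with LPS (squares, 4 against 3 libraries), bars showing 1 SE. The circles lie on 1 side of 0 in each set of 12 by the choice of the genes, and with LPS 3 of the upper 12 and 3 of the lower 12 squares lie on the same side as their circle.

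Ribosomal proteins and the respiratory chain had the lowest median fold changes among the 27 pathway lists, marker lists of other cells not counted. Ribosomal proteins build the small and large subunits that translate messenger RNA, and the nuclear-encoded chain subunits make up the enzymes of oxidative phosphorylation. Their promoters often hold the ETS motif ccggaag, and interferon-induced genes often hold the interferon-stimulated response element, so promoters of both kinds are shown for members described here. They were taken only from members that hold the motif of their list, so a match to that motif follows from the choice. Sequences are from RefSeq (GRCm38.p6), from 250 bases before to 50 bases after the annotated start, in capitals where CCGGAAG, or GAAA followed after any 2 bases by GAAA, was found on either strand.
Rpl38, chr11:114668330-114668629, plus strand: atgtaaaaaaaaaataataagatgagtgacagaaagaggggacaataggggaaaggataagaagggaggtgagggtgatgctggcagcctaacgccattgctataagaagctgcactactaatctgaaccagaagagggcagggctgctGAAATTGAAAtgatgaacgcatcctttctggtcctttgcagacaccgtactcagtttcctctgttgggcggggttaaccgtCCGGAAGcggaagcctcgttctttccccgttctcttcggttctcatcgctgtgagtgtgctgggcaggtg
Rps26, chr10:128626457-128626756, minus strand: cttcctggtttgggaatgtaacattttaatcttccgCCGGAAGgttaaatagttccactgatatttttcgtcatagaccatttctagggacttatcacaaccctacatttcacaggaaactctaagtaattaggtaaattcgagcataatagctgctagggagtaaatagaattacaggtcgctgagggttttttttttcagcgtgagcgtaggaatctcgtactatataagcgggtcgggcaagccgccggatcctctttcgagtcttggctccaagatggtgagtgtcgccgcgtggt
Ifitm3, chr7:141010695-141010994, minus strand: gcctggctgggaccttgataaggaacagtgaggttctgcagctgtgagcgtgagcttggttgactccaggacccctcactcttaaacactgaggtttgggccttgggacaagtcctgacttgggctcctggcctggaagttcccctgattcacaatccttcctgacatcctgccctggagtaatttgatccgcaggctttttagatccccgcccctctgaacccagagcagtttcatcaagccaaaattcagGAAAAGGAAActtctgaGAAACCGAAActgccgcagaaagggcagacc
Bst2, chr8:71537423-71537722, minus strand: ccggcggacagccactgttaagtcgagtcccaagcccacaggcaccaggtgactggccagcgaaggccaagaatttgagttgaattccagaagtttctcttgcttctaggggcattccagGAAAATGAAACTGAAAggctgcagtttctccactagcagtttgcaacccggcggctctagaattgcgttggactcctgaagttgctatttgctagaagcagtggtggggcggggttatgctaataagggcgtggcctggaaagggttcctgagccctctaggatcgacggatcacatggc

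The ETS letters were in 41.4% of 58 ribosomal protein promoters and 26.2% of 61 oxidative phosphorylation promoters with a sequence, against 19.0% of 11295 tested genes and 9.93% of all 27025 promoters. The interferon element was in 58.6% of 29 interferon-response promoters, against 3.98% of tested genes and 3.99% of all promoters. In Bst2 the capitals cover overlapping matches, and Rpl38 holds a match to each motif. A match is a description of the sequence and not a bound site.

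Of 79 ribosomal protein genes 77 had a log2 fold change below 0, 64 of them at an unadjusted p under 0.05 (background 7.08%), and 41 were lower in all 3 CBD-treated libraries than in all 4 GW-PBS libraries (background 5.00%). The median log2 fold change was -0.81, against -0.03 for all genes. None passed in edgeR, and limma voom called 20 (background 0.906%). The 32 small-subunit genes had a median of -0.89 and the 47 large-subunit genes one of -0.74. Rpl38 was at 5.87, 7.14 and 5.67 CPM with CBD against 30.1, 8.66, 13.2 and 17.1 CPM without (-1.47 ± 0.40, and -1.05 without replicate 1), and Rps26 at 9.07, 10.7 and 12.6 CPM against 51.6, 17.7, 23.3 and 21.1 CPM (-1.40 ± 0.39, and -0.93 without it). In both the groups were apart and GW-PBS replicate 1 was far above the rest. Rpl24, at 0.51 ± 0.70, and Rps10, at 0.24 ± 0.38, were the 2 members above 0. Processed pseudogenes resemble these genes, so the share of reads each received is uncertain.

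The summed level of the list shows how much of this rests on 1 library. It was 4311, 5600 and 4700 CPM with CBD and 12570, 5500, 6949 and 6684 CPM in GW-PBS, so GW-CBD-PBS replicate 3 lay above GW-PBS replicate 2 and the groups overlapped. Ctrl-PBS libraries summed to 5275 to 7057 CPM. On library totals GW-CBD-PBS replicate 3 was at 5543 CPM and GW-PBS replicate 2 at 5574 CPM, so there the groups were narrowly apart. GW-PBS replicate 1 was the highest GW-PBS library for 77 of 79 genes. Without it the median log2 fold change was -0.46, and 21 genes were lower at an unadjusted p under 0.05, where 2.07% of all genes were. Without GW-PBS replicate 2 the median was -0.95.

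Of 74 nuclear-encoded oxidative phosphorylation genes 71 had a fold change below 0, 58 at an unadjusted p under 0.05 (background 7.08%), with a median of -0.75. None passed in edgeR, and limma voom called 7 (background 0.906%). All 5 enzyme groups had medians below 0. These were -0.74 for 36 genes of complex I, -0.43 for 4 of complex II, -0.78 for 9 of complex III, -0.86 for 10 of complex IV and -0.66 for 14 of ATP synthase. Ndufa7, a subunit of complex I with the smallest p of the list, was at 32.4, 45.4 and 36.7 CPM against 118, 50.8, 65.0 and 67.3 CPM (-0.98 ± 0.27, edgeR adjusted p = 0.524, and -0.67 without GW-PBS replicate 1). Atp5k, a small subunit of ATP synthase, was at 4.42, 5.84 and 5.26 CPM against 19.2, 7.31, 8.76 and 10.8 CPM (-1.15 ± 0.35, and -0.79 without it). Both were apart between groups.

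Some core catalytic subunits had fold changes near 0. Sdha, of complex II, was at 340, 365 and 380 CPM against 305, 382, 360 and 316 CPM (0.09 ± 0.11). Ndufs1, of complex I, had 0.15 ± 0.13, and Atp5b, the catalytic subunit of ATP synthase, had -0.08 ± 0.12. The 10 members with the highest fold changes had a median transcript length of 1906 bases and the 10 with the lowest one of 486.5 bases. For ribosomal proteins these medians were 1028 and 508 bases. Without GW-PBS replicate 1 the list's median was -0.41, and 13 genes were lower at an unadjusted p under 0.05 (background 2.07%). The 10 mitochondrially encoded genes tested were also all below 0, with a median of -0.39, and of 0.00 without replicate 1.

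**Figure D3:**
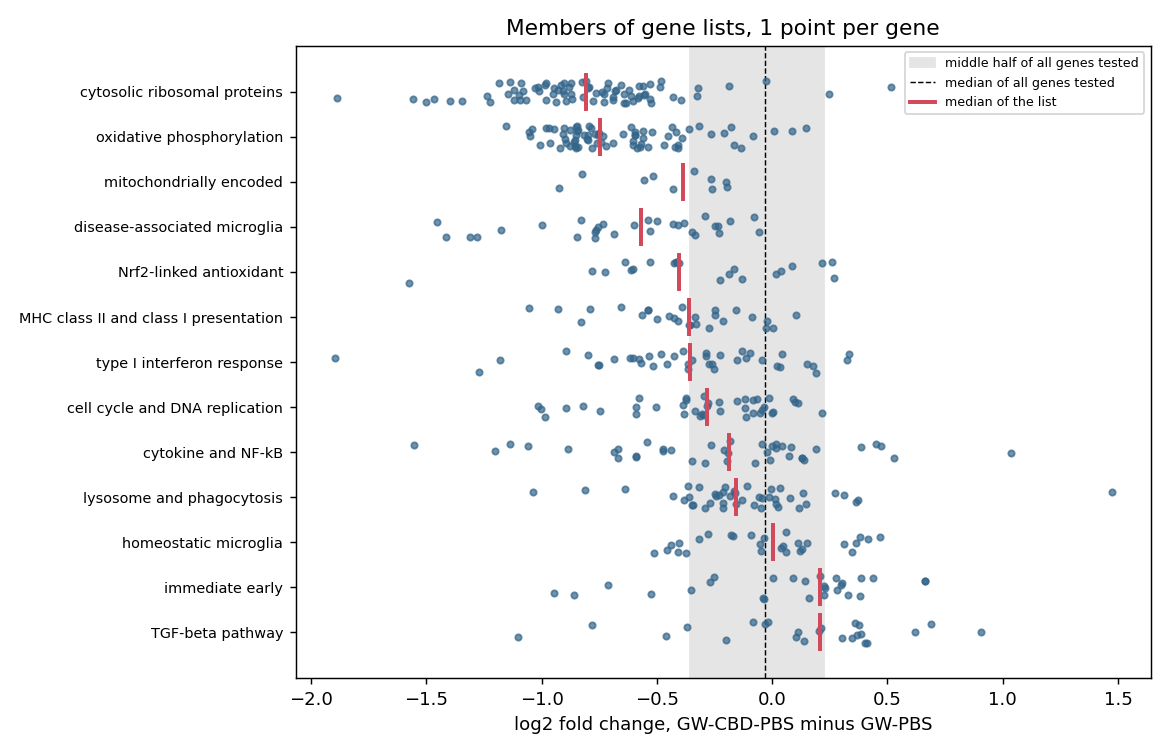
log2 fold change, CBD-treated minus GW-PBS, of each tested member of 13 gene lists (points), with the median of the list (red bar), the median of all genes (dashed line) and the middle 50% of all genes (grey). The ribosomal protein and oxidative phosphorylation points lie mostly left of the grey band, with medians of -0.81 and -0.75, and the homeostatic list is centred on 0.00.

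Fold changes ran with transcript length over all genes tested. Genes were divided into 5 groups of near-equal size by the length of a transcript from the annotation. The shortest group, up to 1388 bases, had a median log2 fold change of -0.41, and 79.1% of its 3308 genes were below 0. The longest, from 4699 bases, had a median of 0.15, with 33.5% below 0. Leaving out the ribosomal protein and oxidative phosphorylation lists gave the shortest group a median of -0.39. Without GW-PBS replicate 1 it was -0.20. In single libraries, relative to the GW-PBS mean, the shortest group had medians of -0.41, -0.24 and -0.38 with CBD and of 0.50, -0.34, -0.13 and -0.01 in GW-PBS. GW-PBS replicate 1 was above all others and replicate 2 lay within the range of the CBD-treated libraries. Ctrl-PBS ran from -0.25 to 0.07.

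When each library's counts were offset for transcript length and GC content, an alternative chosen after seeing these data, edgeR again called 0 genes, and 7.09% were at an unadjusted p under 0.05. The median of the ribosomal protein list was then -0.34 with 72 of 79 below 0 (background 48.8%), and that of oxidative phosphorylation -0.18 with 65 of 74 below 0. The offsets also remove any difference in expression that goes with length. What part the length trend has in the levels of these lists was not tested.

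**Figure D4:**
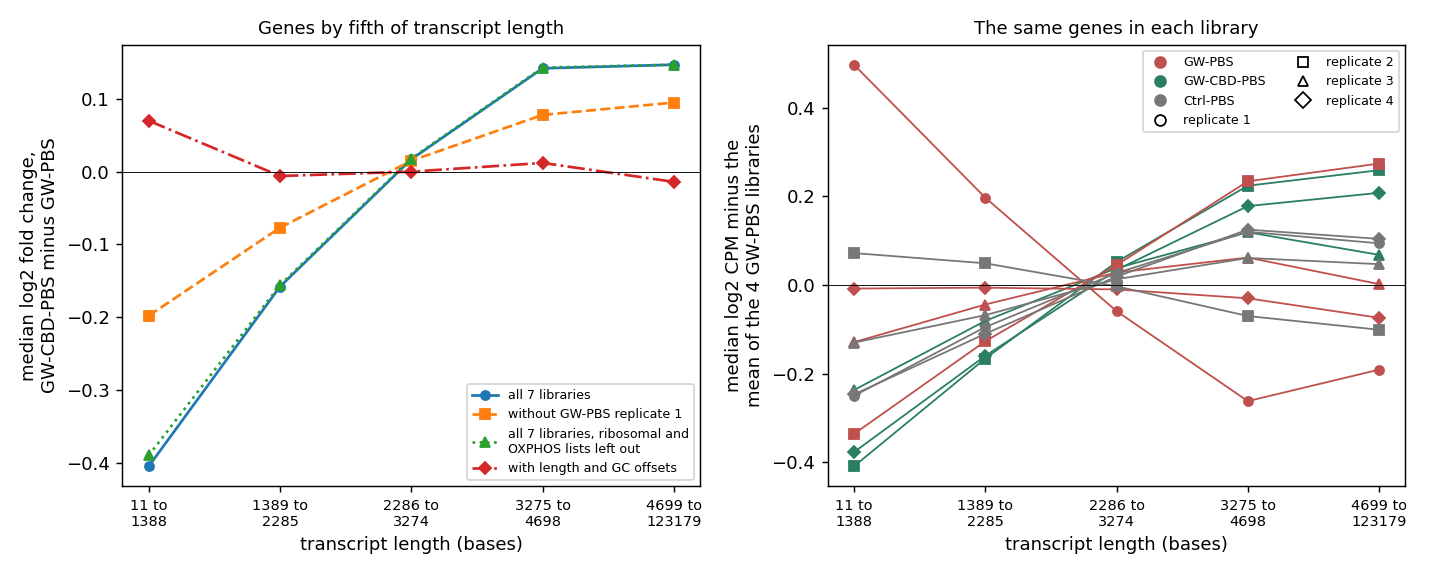
Left, median log2 fold change (CBD-treated minus GW-PBS) of genes in 5 groups by transcript length, for all 7 libraries, without GW-PBS replicate 1, without the ribosomal and oxidative phosphorylation (OXPHOS) lists, and with length and GC offsets; right, the median level of the same genes in each library relative to the GW-PBS mean, on the log2 scale. The medians run from -0.41 in the shortest to 0.15 in the longest group, and GW-PBS replicate 1 slopes the opposite way to the CBD-treated libraries.

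Genes of the disease-associated state were at lower levels with CBD throughout the list. Of 30 genes 30 had a fold change below 0, with a median of -0.57, and 14 had an unadjusted p under 0.05 (background 7.08%). None passed in edgeR, 5 were lower in all 3 treated libraries (background 5.00%), and limma voom called 11 (background 0.906%). Without GW-PBS replicate 1 the median was -0.53, and it was -0.66 without replicate 2 and -0.42 with the length and GC offsets, where 28 of 30 were below 0. Each of these fits kept GW-PBS replicate 3, the highest GW-PBS library for 21 of the 30 genes, so they do not show how far the median rests on it. In bulk RNA, fewer cells in this state and less of its RNA per cell cannot be told apart.

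Among members that handle lipids, Fabp5, a fatty acid carrier that also binds cannabinoids inside cells, was at 7.62, 12.5 and 7.70 CPM with CBD against 27.3, 14.8, 43.8 and 12.99 CPM without (-1.42 ± 0.39, edgeR adjusted p = 0.524). Its groups did not overlap, with GW-PBS replicates 1 and 3 high. Lpl, lipoprotein lipase, was at 134, 177 and 131 CPM against 201, 155, 487 and 154 CPM (-0.76 ± 0.36). Apoe, which carries lipids out of cells, was at 6726, 12060 and 6108 CPM against 12450, 9510, 18520 and 7769 CPM (-0.54 ± 0.28, adjusted p = 0.546). For Lpl and Apoe the groups overlapped, and GW-PBS replicate 3 was the highest library.

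Secreted and matrix genes had the same layout. Spp1, osteopontin, was at 370, 746 and 385 CPM against 836, 567, 2025 and 572 CPM (-0.999 ± 0.46). Lgals3, galectin-3, was at 47.9, 78.2 and 44.8 CPM against 146, 95.9, 235 and 76.4 CPM (-1.28 ± 0.55). Gpnmb, a lysosomal stress glycoprotein, was at 18.2, 45.5 and 13.3 CPM against 30.5, 35.4, 140 and 25.9 CPM (-1.18 ± 0.62). In each, GW-CBD-PBS replicate 3 was the highest treated library and overlapped the GW-PBS range.

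Among receptors, Clec7a, which encodes the beta-glucan receptor Dectin-1, was at 118, 163 and 128 CPM against 178, 142, 338 and 128 CPM (-0.53 ± 0.28, edgeR adjusted p = 0.546). Trem2, the lipid-sensing receptor upstream of the state, was at 1947, 2274 and 1922 CPM against 3623, 1993, 2377 and 2340 CPM (-0.34 ± 0.20, adjusted p = 0.570). Its fold change was -0.12 without GW-PBS replicate 1 and 0.06 with the offsets, so its direction was not kept there. Tyrobp, the signalling adaptor of Trem2, was at 1025, 1314 and 1178 CPM against 3089, 1338, 1797 and 1774 CPM (-0.77 ± 0.25), and -0.47 without that library. The cathepsin genes Ctsb (-0.25 ± 0.10), Ctsz (-0.35 ± 0.12) and Ctsd (-0.18 ± 0.12) had small differences.

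Averaged over the list on the log2 scale, relative to the GW-PBS mean, the CBD-treated libraries stood at -0.73, -0.25 and -0.69 and the GW-PBS libraries at 0.13, -0.28, 0.59 and -0.44. GW-PBS replicates 2 and 4 were thus within the range of the treated libraries, and replicate 3 was the highest GW-PBS library for 21 of the 30 genes. The 4 Ctrl-PBS libraries stood at -0.60, -0.76, -0.29 and -0.53, within or next to the CBD-treated range. In the LPS pair the median of the list was 0.19.

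**Figure D5:**
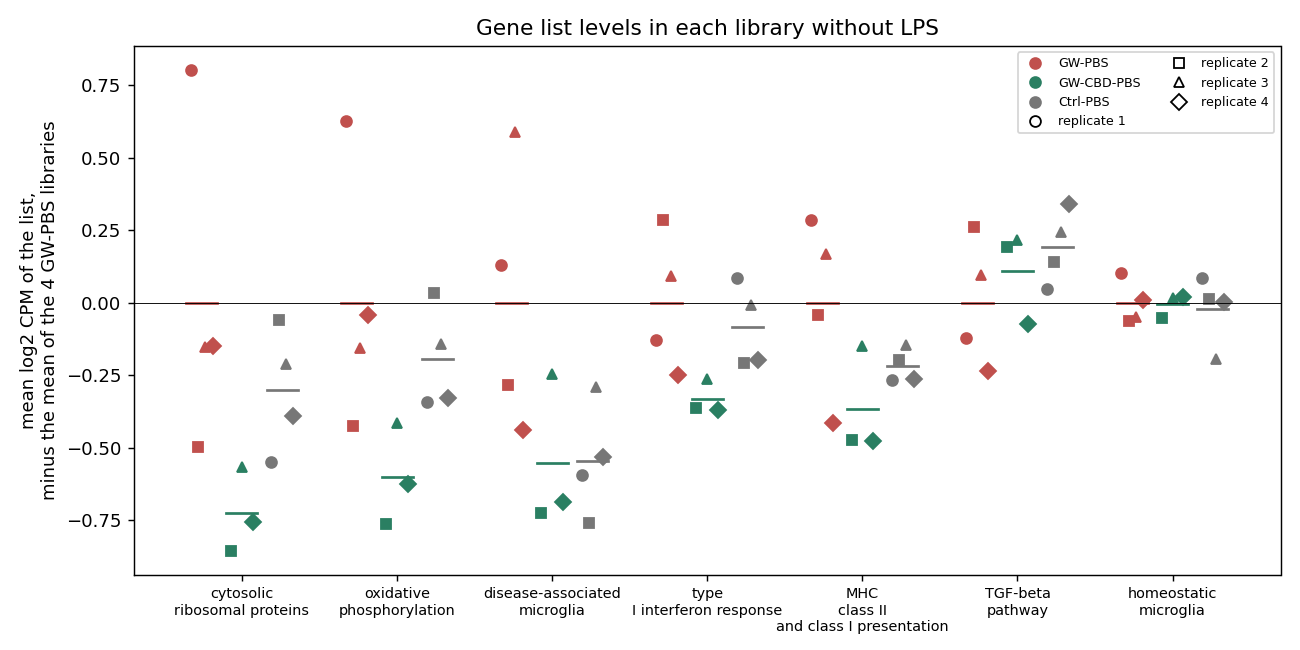
Mean log2 CPM of 7 gene lists in each library without LPS, relative to the mean of the 4 GW-PBS libraries, with group means as lines and symbols for library numbers. In the interferon list the highest CBD-treated library (-0.26) lies just under the lowest GW-PBS library (-0.25), the disease-associated list spreads from -0.44 to 0.59 among GW-PBS libraries, and the homeostatic list lies between -0.19 and 0.10 in all 11 libraries.

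Type I interferon response genes encode antiviral effectors and their sensors. Of 40 genes 32 had a fold change below 0, 8 at an unadjusted p under 0.05 (background 7.08%), and 11 were lower in all 3 CBD-treated libraries than in all 4 GW-PBS libraries (background 5.00%). The median was -0.36, and was -0.42 without GW-PBS replicate 1 and -0.20 without replicate 2. Without replicate 1, 4 members were lower at an unadjusted p under 0.05 (background 2.07%). The summed level was 991.5, 1055 and 979.5 CPM with CBD and 1379, 1386, 1362 and 1102 CPM in GW-PBS. Those sums did not overlap, with GW-PBS replicate 4 nearest to the treated libraries, and the Ctrl-PBS sums of 1108 to 1349 CPM lay above them.

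Ifi27l2a, a small mitochondrial interferon-induced protein, was at 16.1, 21 and 17.3 CPM with CBD against 60.0, 35.6, 45.5 and 33.8 CPM (-1.27 ± 0.38, edgeR adjusted p = 0.524). Ifitm3, which blocks virus entry at endosomes, was at 42.6, 64.2 and 42.4 CPM against 161, 110, 98.4 and 81.9 CPM (-1.18 ± 0.46). Bst2, which tethers budding virus, was at 88.3, 117 and 103 CPM against 238, 128, 154 and 142 CPM (-0.69 ± 0.29, and -0.45 without GW-PBS replicate 1). All 3 were apart between the groups.

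Ifi44 had the smallest p of the list, at 0.62, 0.65 and 0.58 CPM against 2.70, 1.41, 3.81 and 1.32 CPM (-1.90 ± 0.51), a low level throughout. Isg15, a ubiquitin-like modifier, differed by -0.89 ± 0.39 and was also apart. Other members had smaller differences. Irf9, a transcription factor of the pathway, had -0.04 ± 0.12, Stat2 0.32 ± 0.28 and Ifih1, the RNA sensor Mda5, 0.19 ± 0.23, and all 3 overlapped. Ifit3, an RNA-binding effector, was at 35.0, 36.0 and 25.1 CPM against 31.4, 53.7, 43.9 and 36.2 CPM (-0.37 ± 0.32, adjusted p = 0.673). Cxcl10, a T cell attracting chemokine, had -0.80 ± 0.55 (adjusted p = 0.603).

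Of 27 antigen presentation genes 25 had a fold change below 0, with a median of -0.36 that was -0.19 without GW-PBS replicate 1. The 10 class II genes had a median of -0.30 and 0 at an unadjusted p under 0.05, and the 17 class I and processing genes a median of -0.50 and 9 (background 7.08%). Without replicate 1 these medians were -0.12 and -0.32. B2m, the shared light chain of class I, was at 1780, 2237 and 2012 CPM against 5548, 2254, 3674 and 2801 CPM (-0.83 ± 0.28, and -0.53 without replicate 1), apart by a narrow margin. H2-M3, a class I molecule that presents formylated peptides, had -0.54 ± 0.18. H2-Aa, a class II alpha chain, was at 164, 452 and 153 CPM against 454, 342, 355 and 166 CPM (-0.36 ± 0.42, and -0.16 without replicate 1), and the invariant chain Cd74 had -0.36 ± 0.38. GW-CBD-PBS replicate 3 was high for both, within the GW-PBS range for H2-Aa and above every GW-PBS library for Cd74.

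Homeostatic genes did not move together. Of 28 genes 14 were above and 14 below 0, with a median of 0.00. P2ry12, the ADP receptor that guides process movement, was at 4907, 5594 and 5518 CPM with CBD and at 5305, 4010, 5196 and 5958 CPM without (0.06 ± 0.20). Its 95% interval ran from -0.36 to 0.49 on the log2 scale. Tmem119 had 0.04 ± 0.12, and Cx3cr1, the fractalkine receptor, 0.06 ± 0.15. Csf1r, the receptor for the survival factors of microglia, was at 12440, 11260 and 12060 CPM against 6939, 13140, 9778 and 8522 CPM (0.31 ± 0.19, edgeR adjusted p = 0.578, and 0.195 without GW-PBS replicate 1), with overlap through GW-PBS replicate 2. Sall1, a transcription factor of microglial identity, had 0.41 ± 0.22. The complement genes C1qa (-0.46 ± 0.19), C1qb (-0.41 ± 0.19) and C1qc (-0.37 ± 0.17) were the 3 of 28 members at an unadjusted p under 0.05 (background 7.08%). Without GW-PBS replicate 1 they were at -0.245, -0.22 and -0.18, and 0 members were.

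Genes of TGF-beta signalling, which maintains the homeostatic state, had a median of 0.21, with 16 of 24 above 0. With the length and GC offsets the median was 0.13, with 9 of 24 below 0. The members had a median transcript length of 5103 bases, and all genes from 4699 bases had a median fold change of 0.15. Of the 24, 0 were higher in all 3 CBD-treated libraries than in all 4 GW-PBS libraries (background 3.18%). Smad4, the shared partner of receptor-activated SMAD proteins, was at 93.3, 99.6 and 99.1 CPM against 67.0, 96.4, 58.9 and 30.9 CPM (0.62 ± 0.26, edgeR adjusted p = 0.524). The inhibitor Smad7 had 0.36 ± 0.17. The receptor genes Tgfbr1 (0.34 ± 0.25) and Tgfbr2 (0.38 ± 0.25) overlapped between groups, with GW-PBS replicate 1 low for Tgfbr1, which was at 0.20 without it. Pmepa1, a feedback inhibitor, was at 507, 543 and 541 CPM against 785, 279, 122 and 129 CPM. Its fold change of 0.69 ± 0.57 was 1.60 without GW-PBS replicate 1.

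The targets that CBD has been linked to were looked at on their own. Of 30 such genes 23 were tested, 15 with a fold change below 0, and the median was -0.15, and -0.085 without GW-PBS replicate 1. Cnr2, the cannabinoid receptor of immune cells, was at 43.4, 37.9 and 46.5 CPM against 27.2, 46.5, 42.1 and 35.6 CPM (0.17 ± 0.28, and 0.05 without that library). Trpv2, a cation channel that CBD opens, had 0.08 ± 0.10, and 0.004 without it. Mgll, which breaks down the endocannabinoid 2-arachidonoylglycerol, had -0.27 ± 0.23, and Daglb, which makes it, 0.23 ± 0.13. Pparg, a nuclear receptor, was under 2 CPM in all 7 libraries. Gpr55 had too few counts to be tested, with at most 9 in any library. The fatty acid carriers Fabp5 (above) and Fabp3 (-1.32 ± 0.43) were the 2 of 23 members at an unadjusted p under 0.05, both lower. That count is near the share over all genes (background 7.08%).

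Inflammatory and stress genes had mixed directions. Of 40 cytokine and NF-kB genes 25 were below 0, with a median of -0.19, and of -0.59 without GW-CBD-PBS replicate 3 and -0.089 without GW-PBS replicate 2. Il1b was at 63.1, 158 and 39.5 CPM against 114, 171, 107 and 50.01 CPM (-0.35 ± 0.61), and Tnf at 38.4, 71.2 and 32.9 CPM against 62.1, 66.4, 92.9 and 36.5 CPM (-0.44 ± 0.42). Both spread widely in both groups, and GW-CBD-PBS replicate 3 was the highest treated library for each. Fos, an immediate early transcription factor, was also highest there, at 3010 CPM against 1551 and 1259 CPM in the other treated libraries. Of 27 immediate early genes 18 were above 0, with a median of 0.21, and without GW-CBD-PBS replicate 3 the median was -0.23.

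Nrf2-linked antioxidant genes had a median of -0.40, with 15 of 21 below 0, and of -0.25 without GW-PBS replicate 1 and -0.21 without replicate 3. Prdx1, a peroxiredoxin, was at 218, 309 and 251 CPM against 516, 288, 427 and 347 CPM (-0.60 ± 0.22, and -0.44 without replicate 1). Mt1, outside that list, is a metallothionein that binds zinc and that glucocorticoids induce. It is counted in the NADPH oxidase and iron list and the glucocorticoid receptor target list, with the smallest p of each. Its levels were 31.5, 44.6 and 34.4 CPM against 144, 52.7, 78.8 and 61.3 CPM (-1.19 ± 0.40, and -0.80 without replicate 1), with the groups apart. Of 20 p53 and senescence genes 13 were below 0, with a median of -0.19, and of -0.10 without replicate 1. Among them Cdkn1a, a cyclin-dependent kinase inhibitor, had -0.54 ± 0.26, and Gdf15, a stress-induced cytokine, -1.23 ± 0.39 at 1.24 to 2.22 CPM against 2.60 to 5.85 CPM.

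The other lists are given by their counts and medians. Cell cycle and DNA replication genes had a median of -0.28 with 35 of 40 below 0 and 0 at an unadjusted p under 0.05, and without GW-PBS replicate 2 the median was -0.14 with 26 below 0. Their member with the smallest p was Pcna, the sliding clamp of DNA polymerases, at -0.37 ± 0.24, and at -0.225 without replicate 1. NADPH oxidase and iron genes (12 of 16 below 0) had a median of -0.24, and glucocorticoid receptor targets (9 of 15) one of -0.22. Without GW-PBS replicate 1 these were -0.14 and -0.058. Lysosome and phagocytosis genes (31 of 44) had -0.16, glycolysis genes (13 of 18) -0.17 and cholesterol genes (14 of 22) -0.13. Complement, with 9 of 18 below 0, had -0.10, and lipid efflux and droplet genes, with 16 of 29, had -0.11. Without GW-PBS replicate 2 both turned, to 0.19 and 0.07, and without replicate 1 they were -0.175 and -0.017.

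Among stress genes, ER stress had a median of -0.12, with Trib3, a pseudokinase, at -1.37 ± 0.53. Heat shock chaperones had 0.04, with the small heat shock gene Cryab at -1.03 ± 0.48, and at -0.49 without GW-PBS replicate 1. Toll-like receptor genes had 0.05, and 0.005 without it, with the LPS co-receptor Ly96 at -0.81 ± 0.27. Autophagy had 0.06, and -0.06 with the length and GC offsets, with Gabarap, of the autophagosome membrane, at -0.56 ± 0.24 and at -0.30 without replicate 1. Circadian clock genes had 0.02, and -0.05 without replicate 1. Inhibitory receptors had -0.09, and -0.15 without it.

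No marker of other cells the sort could hold passed in edgeR. Summed on library totals, the neuron markers were apart between the groups, at 5.86 to 7.55 CPM with CBD and 7.62 to 11.4 CPM in GW-PBS. The astrocyte markers were apart on the TMM scale, at 192 to 208 CPM against 215 to 249 CPM, and overlapped on library totals. The microglia markers were apart on library totals, at 48150 to 51360 CPM with CBD and 41900 to 48060 CPM in GW-PBS, and overlapped on the TMM scale. The sums of the remaining marker lists overlapped on both scales, and those below are on library totals. The 9 erythroid markers were all below 0 with a median of -1.77, and 5 had an unadjusted p under 0.05 (background 7.08%). Their sum was 230.5 to 400.5 CPM with CBD and 274 to 1602 CPM in GW-PBS. The 15 neutrophil markers summed to 684 to 740.0 CPM and to 507 to 2057 CPM, the granule gene S100a8 being at 1.31, 11.1 and 0.55 CPM against 293, 36.1, 3.22 and 0.53 CPM on the TMM scale. None of the 15 had an unadjusted p under 0.05. Choroid plexus and ependymal markers, 7 of 7 below 0 and 3 at an unadjusted p under 0.05 (background 7.08%), summed to 32.0 to 84.8 CPM and 64.3 to 741 CPM. Border-associated macrophage markers, 6 of 10 above 0, ran from 243.7 to 540.3 CPM over the 7 libraries. The part of these cells in the other differences was not tested. Without the 3 libraries of the series with raised neutrophil markers, GW-PBS replicate 1 among them, edgeR called 0 genes.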

How the data were processed

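Bulk RNA-seq of sorted microglia was deposited by the authors as raw read counts per gene for 22 libraries (54532 entries), from stranded poly(A) libraries per the labels' protocols and builds GRCm38 and mm10 per the submitters' processing notes. Aligner, counter and annotation: not given in the sources used here. Symbols altered to dates were restored for 27 entries, and 203 entries repeated a symbol. All 22 libraries in 6 groups were fitted with edgeR 4.0.16 (quasi-likelihood, TMM, filterByExpr, 16554 genes), limma 3.58.1 and DESeq2 1.42.0 being alternatives (R 4.3.3), and p-values were adjusted over all genes tested. Gene levels and list sums are TMM-scaled CPM, and marker sums are CPM of library totals. Counting error is small at this depth except for genes at low levels, such as Ifi44 and Pparg, and the number of libraries limits precision. Transcript lengths were from GENCODE M21. The scripts were tested on simulated data.

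The rule named, per direction, 12 genes of at least 5 CPM (called ones, then by smallest p), index genes and the member of each list with the smallest p. Other list members were named after their values were seen. The members and lists were chosen with earlier results of these data known. Figures were drawn with matplotlib 3.10.9.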

Additional observations from a re-analysis of the deposited data

Results flagged for a closer look

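In 8 of 69 sets of 4 GW-PBS values (42 genes and 27 list sums), the gap between 1 library and the nearest other took up most of the range, past a limit that chance alone passes in about 1 of 20 groups. The gap is relative, so it can be small in CPM, as for Cx3cr1. Replicate 1 was high for Khdrbs3, at 33.0 CPM against 7.36 to 11.1 CPM. It was also high for the ribosomal protein genes Rps27, at 102 CPM against 35.3 to 46.6 CPM, and Rps29, at 148 CPM against 46.8 to 64.0 CPM. For the channel gene Trpv2 it was low, at 124 CPM against 158 to 164 CPM. Replicate 3 was low for Tmem119, at 5884 CPM against 6595 to 6664 CPM. Replicate 4 was low for Cx3cr1, at 3785 CPM against 3814 to 3820 CPM, and for the summed interferon list, at 1102 CPM against 1362 to 1386 CPM. It was high for the summed heat shock list, at 3868 CPM against 3078 to 3153 CPM.

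The CBD difference was unlike with and without LPS for 3 of 16554 genes (0.0181%) by the edgeR interaction term, with 2540 at an unadjusted p under 0.05. The log2 interaction, with LPS minus without, was 1.61 for Slamf8, a receptor that dampens myeloid activation, 1.96 for Arl5c, a small GTPase gene, and -4.65 for Adamtsl4, a secreted matrix protein (adjusted p = 0.0386 for each). No gene was called without GW-PBS replicate 1.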

How the results depend on the processing

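edgeR called 0 genes with other size factors (RLE), with no filter on low counts, without the 3 neutrophil-high libraries, with length and GC offsets and without each of the 7 libraries in turn, and DESeq2 called 0. The 7 libraries alone gave 1 call, higher, and limma voom 217 (67 higher, 150 lower). Library numbers were shared between groups, and deviations of same-numbered libraries correlated at 0.10, 0.03 and 0.15. For libraries of different number the correlations ran from -0.193 to 0.167. The numbers were not taken to pair samples, though so few values cannot exclude pairing. The replicate block gave 21 calls, 14 higher and 7 lower, and turned Trpv2 to -0.004. Of the 64 genes followed through every alternative, 4 crossed 0 when 1 library was left out. P2ry12 ran from -0.039 (without GW-PBS replicate 2) to 0.145, Tmem119 from -0.002 (without GW-PBS replicate 3) to 0.086, and Il1b from -1.104 to 0.028 (without GW-CBD-PBS replicate 4). Pparg ran from -1.001 to 0.597 (without GW-PBS replicate 2), and was at 0.199 without GW-CBD-PBS replicate 4. With the offsets Cx3cr1 was at -0.15 and Trem2 at 0.06. The cause was not tested. Interaction calls numbered 19 with no filter, 377 by DESeq2, 2287 by limma voom, and from 0 to 211 when 1 library was left out. Leaving out GW-CBD-LPS replicate 2 gave 211 of these, GW-LPS replicate 2 gave 92, and GW-PBS replicate 2 gave 19. There were 0 when any of GW-PBS replicates 1 and 3, GW-LPS replicates 3 and 4, GW-CBD-PBS replicates 2, 3 and 4 or GW-CBD-LPS replicates 1, 3 and 4 was left out.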
